A study of Homo sapiens with 44 samples.

Results

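The 9 genes described here encode the RNA sensors DDX58 (RIG-I), IFIH1 (MDA5) and DHX58 (LGP2), their mitochondrial adaptor MAVS, the interferon signalling factors STAT2 and IRF9, and the interferon regulatory factors IRF7, IRF1 and IRF3. They were chosen by symbol, with earlier results of these data known. All 9 were found among the 18797 genes of the GAS41 experiment and among the 21159 genes of the doxorubicin experiment. Both experiments measured RNA in HCT116, a human colon cancer cell line, here p53+/+. The GAS41 experiment compared cells lacking GAS41 (GAS41-KO), knockout cells stably expressing GFP-Flag-GAS41 Y74A/W93A (mut rescue) or GFP-Flag-GAS41 wt (wt rescue), and WT cells. The doxorubicin experiment compared cells given doxorubicin at 500 nM (Dox), an intercalating drug that breaks DNA, with cells given the vehicle (DMSO). Each group had 3 libraries, which the labels call biological replicates without saying that they are separate cultures. Whether a line is 1 clone and how long the drug was given are not stated in the labels either. The p-values below measure the spread between these libraries, which may be technical. GAS41, encoded by YEATS4, is a YEATS-domain protein that binds acylated histone tails, and both substitutions lie in that domain.

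DDX58 and IFIH1 are helicases that recognise double-stranded RNA in the cytosol. When bound to RNA they engage MAVS on mitochondria, from which kinases activate IRF3 and IRF7, the factors that switch on interferon genes. DHX58 lacks the signalling domains of the other sensors and modulates them. Secreted type I interferon acts through its receptor and the kinases JAK1 and TYK2, and STAT2 and IRF9 act as subunits of the activated complex ISGF3. ISGF3 binds interferon-stimulated response elements, and many interferon-stimulated genes, among them DDX58, IFIH1, DHX58, STAT2, IRF9 and IRF7, encode parts of the same circuit. IRF1 is induced mainly by interferon gamma, through gamma-activated sites. MAVS and IRF3 are generally made constitutively, and their proteins are controlled largely after translation. Levels of RNA, as measured here, do not show activation of a protein.

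The promoters below are shown because they hold matches to interferon response elements and gamma-activated sites. RefSeq promoters of build GRCh38.p14, from 250 bases before to 50 after the start site, were matched for 6 of the 9 genes; those of DHX58, IRF7 and IRF3 were not matched. They were searched on both strands for the core of the interferon-stimulated response element, which is GAAA, any 2 bases and GAAA, for a form shortened by 1 base, GAANNGAAA, and for the gamma-activated site, TTCNNNGAA. The shortened form was chosen after the windows had been read. Capitals mark the matches, the letters run 5′ to 3′ on the strand of the gene, and positions are counted from the start site.
DDX58, chr9:32526346-32526445, minus strand: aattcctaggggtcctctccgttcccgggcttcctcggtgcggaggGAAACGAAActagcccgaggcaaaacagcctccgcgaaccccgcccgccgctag
IFIH1, chr2:162318691-162318848, minus strand: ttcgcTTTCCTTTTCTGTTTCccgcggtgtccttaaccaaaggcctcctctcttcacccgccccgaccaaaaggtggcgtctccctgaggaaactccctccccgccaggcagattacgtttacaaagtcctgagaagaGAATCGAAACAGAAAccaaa
IRF9, chr14:24161165-24161264, plus strand: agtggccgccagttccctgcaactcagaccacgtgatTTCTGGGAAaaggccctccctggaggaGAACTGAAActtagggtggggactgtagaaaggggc
IRF1, chr5:132490844-132490943, minus strand: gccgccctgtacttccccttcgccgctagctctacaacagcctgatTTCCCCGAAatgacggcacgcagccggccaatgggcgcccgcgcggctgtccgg

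IFIH1 held the full response element core 3 times: at -159 to -150 and at -153 to -144 on the opposite strand, which overlap, and at -21 to -12. The last of these overlapped a shortened core at -26 to -18. DDX58 had a shortened core at -203 to -195, and IRF9 had one at -36 to -28 together with a gamma-activated site at -63 to -55. IRF1 had a gamma-activated site at -124 to -116. None of the 3 motifs was found in the windows of STAT2 and MAVS. Among all 35116 RefSeq promoters of this length, 3.57% held the full core, 7.66% the shortened core and 7.66% the gamma-activated site. The shortened core was chosen after these windows had been read, so its share does not test its matches here. A match describes the letters and does not show binding.

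The libraries of the GAS41 experiment held 16857982 to 18546135 reads on genes, and those of the doxorubicin experiment 17442035 to 18894312. Reads divided by the size factor of each library are called normalized reads below. They were recovered from the deposited values, which are on a log2 scale that is compressed for low genes. The lowest value of that scale stands for 0 reads, and a value 1 log2 unit above it for 39.1 normalized reads in the GAS41 experiment and for 52.6 in the doxorubicin experiment. A log2 change of a low gene is therefore smaller than its fold change in normalized reads implies. Genes with at least 10 reads in at least 3 libraries were tested with limma, and a change was called at an adjusted p under 0.05. All 9 genes passed this filter in both experiments. Gene lengths were not used, so levels are compared between groups and not between genes. In bulk RNA, fewer cells of a kind and less RNA per cell cannot be told apart.

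YEATS4 averaged 349 ± 32.3 normalized reads in GAS41-KO cells, 2482 ± 108 in mut rescue cells, 3253 ± 323 in wt rescue cells and 618 ± 8.98 in WT cells (SD, n = 3 each). The position of the deletion in the transcript is not stated in the labels. The mut rescue line had 0.763 times the YEATS4 RNA of the wt rescue line, a called difference (adjusted p = 0.000443). Of the colon epithelial markers, 3 of 7 tested were called higher and 2 lower in GAS41-KO than in WT cells. EPCAM averaged 915 normalized reads in GAS41-KO, 1670.2 in mut rescue, 9012 in wt rescue and 7503 in WT cells. CDH1 averaged 138 normalized reads in GAS41-KO, 163 in mut rescue, 1349.8 in wt rescue and 1419 in WT cells. KRT8 averaged 36697 normalized reads in GAS41-KO, 40057 in mut rescue, 41543 in wt rescue and 26988 in WT cells. EPCAM and CDH1 were thus low in the groups in which the sensors, given below, were high. KRT20 went the other way, averaging 103 normalized reads in GAS41-KO, 95.4 in mut rescue, 22.7 in wt rescue and 16.5 in WT cells. The epithelial markers therefore did not move together. The 3 plasmacytoid dendritic cell markers with a row, CLEC4C, LILRA4 and TCF4, summed to 0.998 to 7.01 normalized reads in GAS41-KO libraries and 0.949 to 5.73 in WT libraries. The leukocyte marker PTPRC had 5 reads in all over the GAS41-KO libraries and 0 in every mut rescue, wt rescue and WT library. The 7 blood and immune markers with a row, PTPRC among them, summed to 216 to 236 normalized reads in GAS41-KO, 235 to 307 in mut rescue, 321 to 392 in wt rescue and 199 to 219 in WT libraries. Most of this sum was CD68, which averaged 172 in GAS41-KO, 239 in mut rescue, 329 in wt rescue and 180 in WT cells. LYZ averaged 19.1 to 45.8, and no other marker of this list averaged above 5.1 in any group. The 3 fibroblast markers with a row summed to 240.2 to 311 in GAS41-KO, 262 to 335 in mut rescue, 161 to 179 in wt rescue and 270.2 to 308 in WT libraries. COL1A1 made most of it, averaging 242 in GAS41-KO, 285 in mut rescue, 167 in wt rescue and 285 in WT cells. Rows were found for 8 of 9 colon epithelial and 7 of 10 blood and immune markers. They were found for 3 of 6 fibroblast and 3 of 4 plasmacytoid dendritic cell markers. The deposited values held no gene at 0 in all libraries, so a marker without reads would have no row. The part of the marker differences in the results was not tested. Replicates 2 and 3 of the wt rescue detected 17190 and 17202 genes, against 17444 in replicate 1 and 17742 to 17880 in the 9 other libraries of the experiment. Results of the wt rescue are therefore also given below with replicate 1 alone where the call changes.

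Loss of GAS41 went with higher RNA of 7 of the 9 genes. The sensors DDX58, IFIH1 and DHX58, the ISGF3 subunits STAT2 and IRF9, and IRF7 and IRF1 rose in GAS41-KO cells relative to WT cells, by 1.90-fold for IRF1 up to 8.34-fold for DDX58. MAVS and IRF3 were not called. None of the 9 fell. Of all 14505 genes tested, 52.6% were called, 26% higher and 26.6% lower. The median change of the 9 genes was 1.31 on the deposited log2 scale, against -0.01 over all tested genes. Because the 9 genes were chosen with earlier results known, these shares and medians describe them and do not test them as a set.

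DDX58, the sensor of RNA bearing 5′ triphosphates, had 1632, 1566 and 1561 normalized reads in GAS41-KO libraries, 1025, 838 and 1038 in mut rescue libraries, 178, 113 and 161 in wt rescue libraries, and 216, 196 and 158 in WT libraries. The knockout libraries lay above all others, the mut rescue libraries lay between, and the wt rescue and WT libraries overlapped. GAS41-KO over WT, the fold was 8.34 and the change was 2.41 ± 0.10 on the deposited log2 scale (SE, limma adjusted p = 5.63e-12).

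IFIH1, the sensor of long double-stranded RNA, had 1049, 981 and 994 normalized reads in GAS41-KO libraries, 544, 531 and 578 in mut rescue libraries, 108, 97.0 and 105 in wt rescue libraries, and 169, 159.6 and 161 in WT libraries. No library of any group overlapped with another group, and the wt rescue was lowest. The knockout was 6.17-fold above WT, a log2 change of 1.95 ± 0.05 (limma adjusted p = 7.14e-14). Its 3 full response element cores are printed above.

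DHX58, the regulatory helicase without signalling domains, had low RNA throughout. It had 44.9, 34.6 and 37.0 normalized reads in GAS41-KO libraries, 11.97, 24.9 and 11.1 in mut rescue libraries, 7.97, 7.30 and 10.3 in wt rescue libraries, and 4.77, 9.44 and 9.49 in WT libraries. The knockout libraries stood above all others, and the mut rescue libraries lay just above those of wt rescue and WT. The means in GAS41-KO and WT differed 4.92-fold, which on the compressed log2 scale was 0.54 ± 0.07 (limma adjusted p = 9.6e-06).

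MAVS, the adaptor that DDX58 and IFIH1 share, had groups that overlapped. It had 4626, 5309.6 and 5324 normalized reads in GAS41-KO libraries, 4991, 4933 and 6047 in mut rescue libraries, 4573, 5063 and 4975 in wt rescue libraries, and 4809.6, 4703 and 4677 in WT libraries. The range of WT lay within those of GAS41-KO and wt rescue, and the mut rescue libraries lay above WT. The change between GAS41-KO and WT was 0.10 on the log2 scale, with a 95% interval of -0.07 to 0.27 (limma adjusted p = 0.317), although a fit on these groups alone called it higher (adjusted p = 0.0178).

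STAT2, the ISGF3 subunit that carries the transactivation domain, had 1615, 1626 and 1653 normalized reads in GAS41-KO libraries, 1378, 1325 and 1294 in mut rescue libraries, 440.2, 475 and 463 in wt rescue libraries, and 595, 545 and 578 in WT libraries. The 4 groups did not overlap. The knockout stood 2.85-fold above WT, a log2 change of 1.31 ± 0.06 (limma adjusted p = 1.17e-11).

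IRF9, the DNA-binding subunit of ISGF3, had 1069, 1095 and 1051 normalized reads in GAS41-KO libraries, 828, 882 and 821 in mut rescue libraries, 111, 138 and 122 in wt rescue libraries, and 145, 165 and 168 in WT libraries. The order of the groups was that of STAT2, again with no overlap. The knockout stood 6.72-fold above WT, a log2 change of 2.05 ± 0.06 (limma adjusted p = 1.39e-13).

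IRF7, the factor that amplifies interferon production and is itself interferon-induced, had 471, 519.7 and 511 normalized reads in GAS41-KO libraries, 323, 405 and 285 in mut rescue libraries, 50.8, 41.7 and 60.9 in wt rescue libraries, and 57.3, 68.9 and 54.1 in WT libraries. Knockout libraries were highest, mut rescue libraries were next, and wt rescue and WT libraries overlapped. The knockout stood 8.33-fold above WT, a log2 change of 1.82 ± 0.08 (limma adjusted p = 3.11e-11).

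IRF1, an early responder to interferon gamma, had 578, 619.6 and 617 normalized reads in GAS41-KO libraries, 523, 543 and 461 in mut rescue libraries, 364, 438 and 414 in wt rescue libraries, and 323, 335 and 299 in WT libraries. The groups did not overlap, but the spacing between them was small. The knockout stood 1.90-fold above WT, a log2 change of 0.70 ± 0.07 (limma adjusted p = 3.24e-07).

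IRF3, the factor that MAVS signalling activates first, had 713, 732 and 685 normalized reads in GAS41-KO libraries, 654, 755 and 621 in mut rescue libraries, 718, 785 and 789 in wt rescue libraries, and 596, 679 and 671 in WT libraries. The lowest knockout library lay just above the highest WT library. The mut rescue libraries overlapped both groups, and the wt rescue libraries lay above all WT libraries. The change between GAS41-KO and WT was 0.11 on the log2 scale, with a 95% interval of -0.04 to 0.26 (limma adjusted p = 0.203), and a fit on these groups alone called it higher (adjusted p = 0.0361). IRF3 overlaps the gene BCL2L12, whose RNA averaged 642 normalized reads in GAS41-KO cells and 883 in WT cells. Whether reads were counted by strand is not stated, so reads of the overlap may have been assigned to either gene or to none.

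Counted without the test, 8 of the 9 genes had GAS41-KO and WT libraries that did not overlap, against 69% of all tested genes. The exception was MAVS. For 5 genes, DDX58, IFIH1, STAT2, IRF9 and IRF7, the change was at least 1 on the log2 scale.

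**Figure D1:**
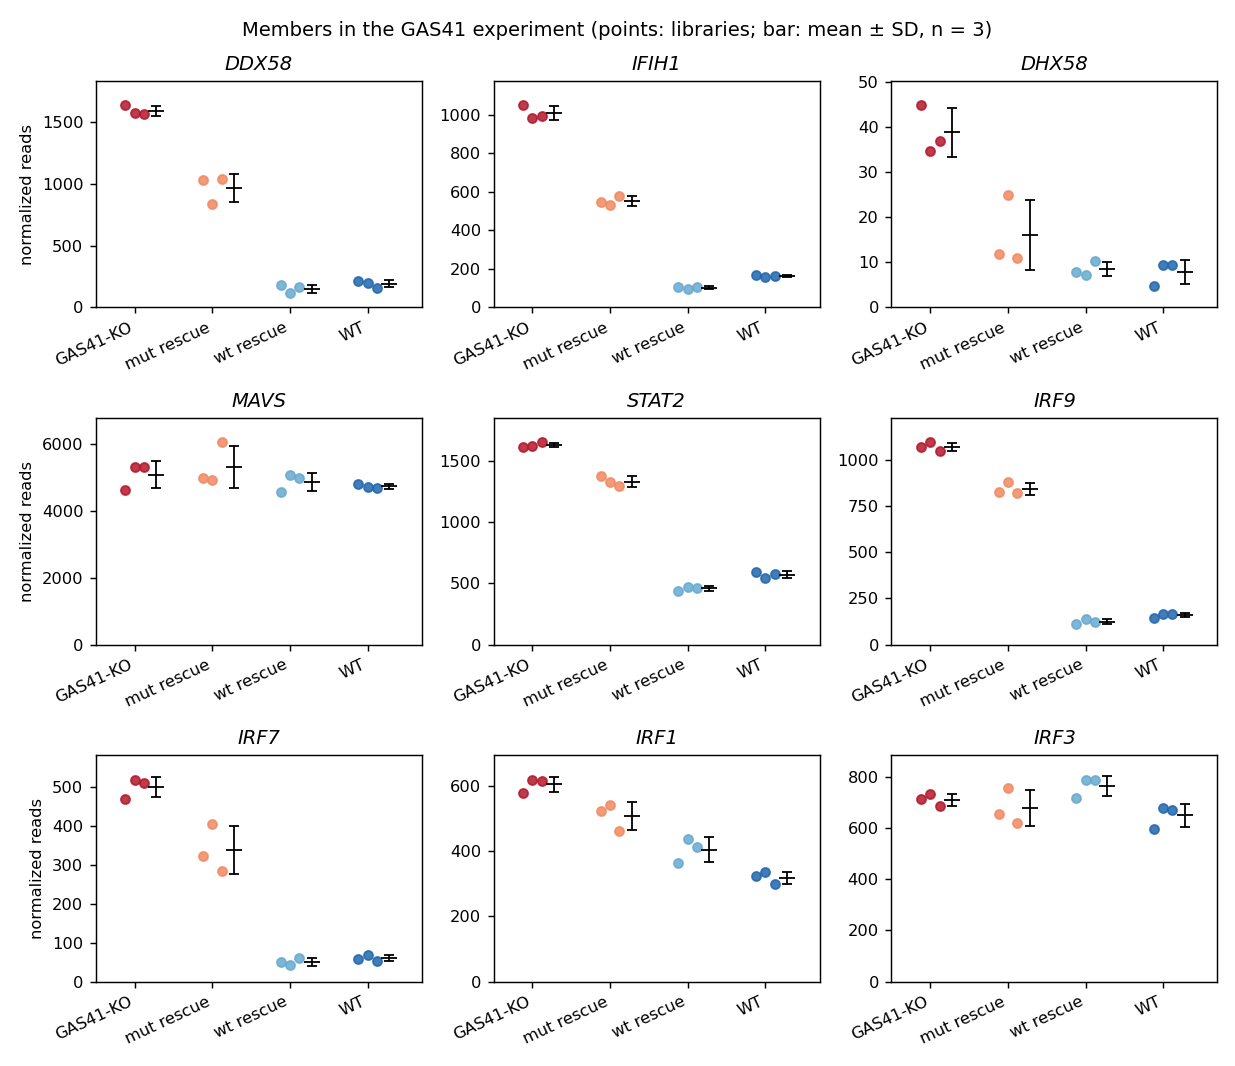
Normalized reads (vertical axes, each starting at 0) of the 9 genes in the 12 libraries of the GAS41 experiment; points are libraries and bars give mean ± SD, n = 3 a group. For DDX58, IFIH1, STAT2, IRF9 and IRF7 the GAS41-KO and mut rescue libraries lie far above the wt rescue and WT libraries, whereas for MAVS and IRF3 all 4 groups lie close together.

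In the knockout that expressed GAS41 wt, the 7 genes raised in GAS41-KO cells had lower RNA. All 7 were called lower in wt rescue than in GAS41-KO cells, and MAVS and IRF3 were not called. In this comparison 66% of all tested genes were called, and 33% were called lower. Libraries of wt rescue and GAS41-KO did not overlap for 7 of the 9 genes, against 68.8% of all tested genes. GAS41-KO cells held 10.5 times the DDX58 reads of wt rescue cells, 9.76 times those of IFIH1, 9.79 times those of IRF7 and 8.69 times those of IRF9. The difference was smaller for DHX58, at 4.56 times, for STAT2, at 3.55 times, and for IRF1, at 1.49 times. The change of wt rescue against GAS41-KO cells on the log2 scale was -2.62 for DDX58 and -0.45 for IRF1, whose limma adjusted p was 2.41e-05. Quantile normalization also called MAVS lower (adjusted p = 0.0124).

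Relative to WT cells, wt rescue cells had lower RNA of IFIH1, STAT2 and IRF9 and higher RNA of IRF1 and IRF3. These are 5 of the 9 genes, where 50.1% of all tested genes were called, 27.4% higher and 22.7% lower. The same 5 genes had libraries that did not overlap, against 57.3% of all tested genes. IFIH1 averaged 103 ± 5.56 normalized reads in wt rescue cells and 163 ± 5.0 in WT cells, a log2 change of -0.36 ± 0.05 (limma adjusted p = 0.000142). STAT2 averaged 459 ± 17.5 and IRF9 123 ± 13.6 in wt rescue cells, against 572 ± 25.3 and 159 ± 12.5 in WT cells, with limma adjusted p of 0.00189 and 0.0104. DDX58 averaged 151 ± 34.0 normalized reads in wt rescue cells and 190.2 ± 29.2 in WT cells and was not called (limma adjusted p = 0.0885), though it was called lower without WT replicate 3 (adjusted p = 0.0421) or without wt rescue replicate 1 (adjusted p = 0.0152). IRF1 and IRF3 stood 1.27-fold and 1.18-fold above WT, with limma adjusted p of 0.00661 and 0.0274. With wt rescue replicate 1 alone, IRF1 (adjusted p = 0.297) and IRF3 (adjusted p = 0.39) were no longer called, and 16.1% of all genes were called. Under quantile normalization IRF9 was no longer called (adjusted p = 0.144), and under TMM factors IRF3 was lost (adjusted p = 0.0827). The call of IRF3 was also lost without WT replicate 1, wt rescue replicate 2 or wt rescue replicate 3 (adjusted p = 0.134, 0.079 and 0.0941). The split of the 5 calls, 2 higher and 3 lower, was 1 higher and 3 lower under TMM factors and 2 higher and 2 lower under quantile normalization.

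In mut rescue cells DDX58, IFIH1, DHX58, STAT2, IRF9, IRF7 and IRF1 were called higher than in WT cells, and MAVS and IRF3 were not called. Among all tested genes, 46.3% were called, 23.5% higher and 22.9% lower. Libraries of mut rescue and WT did not overlap for 8 of the 9 genes, against 56% of all tested genes, the exception being IRF3. The fold over WT was 5.62 for IRF7, 5.29 for IRF9, 5.08 for DDX58, 3.38 for IFIH1, 2.33 for STAT2 and 1.60 for IRF1. DHX58 averaged 16.0 ± 7.77 normalized reads in mut rescue cells and 7.90 ± 2.71 in WT cells (limma adjusted p = 0.046). That call was lost without mut rescue replicate 2 (log2 change 0.10, adjusted p = 0.236, against 0.18 with it), without WT replicate 1, 2 or 3 (adjusted p = 0.188, 0.0565 and 0.0568), with no filter on low reads (0.0593), in a fit on these groups alone (0.0667), and under TMM factors (0.053) or quantile normalization (0.0852).

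Against the wt rescue, the mut rescue line had higher RNA of 6 of the 9 genes. Over all tested genes, 61.1% were called, 29.8% higher and 31.3% lower. Libraries of mut rescue and wt rescue did not overlap for 7 of the 9 genes, against 57.9% of all tested genes. IRF9 averaged 844 ± 33.5 normalized reads in mut rescue cells and 123 ± 13.6 in wt rescue cells, a 6.84-fold difference. The fold was 6.60 for IRF7, 6.42 for DDX58, 5.34 for IFIH1, 2.90 for STAT2 and 1.26 for IRF1, whose limma adjusted p was 0.00448. DHX58 (adjusted p = 0.0608), MAVS (adjusted p = 0.202) and IRF3 (adjusted p = 0.0755) were not called, although quantile normalization (adjusted p = 0.00701) and TMM factors (adjusted p = 0.0476) called MAVS higher. DHX58 was called higher without mut rescue replicate 1 or 3 (adjusted p = 0.0477 and 0.0326). IRF3 was called lower without mut rescue replicate 2 or wt rescue replicate 1 (adjusted p = 0.0095 and 0.0273). The lower YEATS4 RNA of the mut rescue line, given above, went with these differences, and its part in them was not tested.

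Relative to GAS41-KO cells, mut rescue cells had lower RNA of 6 of the 9 genes, DDX58, IFIH1, DHX58, STAT2, IRF9 and IRF7. Of all tested genes, 14.9% were called and 9% were called lower. Libraries of mut rescue and GAS41-KO did not overlap for 7 of the 9 genes, against 33.7% of all tested genes. IFIH1 averaged 551 ± 24.5 normalized reads in mut rescue cells and 1008 ± 35.9 in GAS41-KO cells, a log2 change of -0.73 ± 0.05 (limma adjusted p = 2.22e-07). DDX58 averaged 967 ± 112 in mut rescue cells and 1586 ± 39.9 in GAS41-KO cells, a log2 change of -0.64 ± 0.10 (limma adjusted p = 0.000285). These sensors had mut rescue libraries that lay between the knockout and all other libraries. IRF7 averaged 338 ± 61.5 normalized reads in mut rescue cells and 501 ± 26.1 in GAS41-KO cells (limma adjusted p = 0.00203). DHX58 averaged 16.0 ± 7.77 normalized reads in mut rescue cells and 38.9 ± 5.36 in GAS41-KO cells (limma adjusted p = 0.0027). The ISGF3 subunits STAT2 and IRF9 differed least among the called genes. STAT2 averaged 1332 ± 42.7 normalized reads in mut rescue cells and 1631 ± 19.2 in GAS41-KO cells, and IRF9 averaged 844 ± 33.5 in mut rescue cells and 1071 ± 22.0 in GAS41-KO cells. Their log2 changes were -0.27 and -0.30 (limma adjusted p = 0.00386 and 0.00315). IRF1 was lower in every mut rescue library than in any knockout library but was not called (log2 change -0.20, 95% interval -0.35 to -0.06, limma adjusted p = 0.0594). It was called with TMM factors (adjusted p = 0.0399) and without mut rescue replicate 2 (adjusted p = 0.0344).

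By their means, DDX58, IFIH1, STAT2, IRF9 and IRF7 had 1 order of the groups: GAS41-KO highest, then mut rescue, then WT, then wt rescue. Of the neighbouring steps in this order, that between WT and wt rescue was not called for DDX58 and IRF7. DHX58 and IRF1 had GAS41-KO and mut rescue at the top and wt rescue above WT, a step that was called for IRF1 only. The comparisons of the GAS41 experiment share libraries and are therefore not independent of one another.

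**Figure D2:**
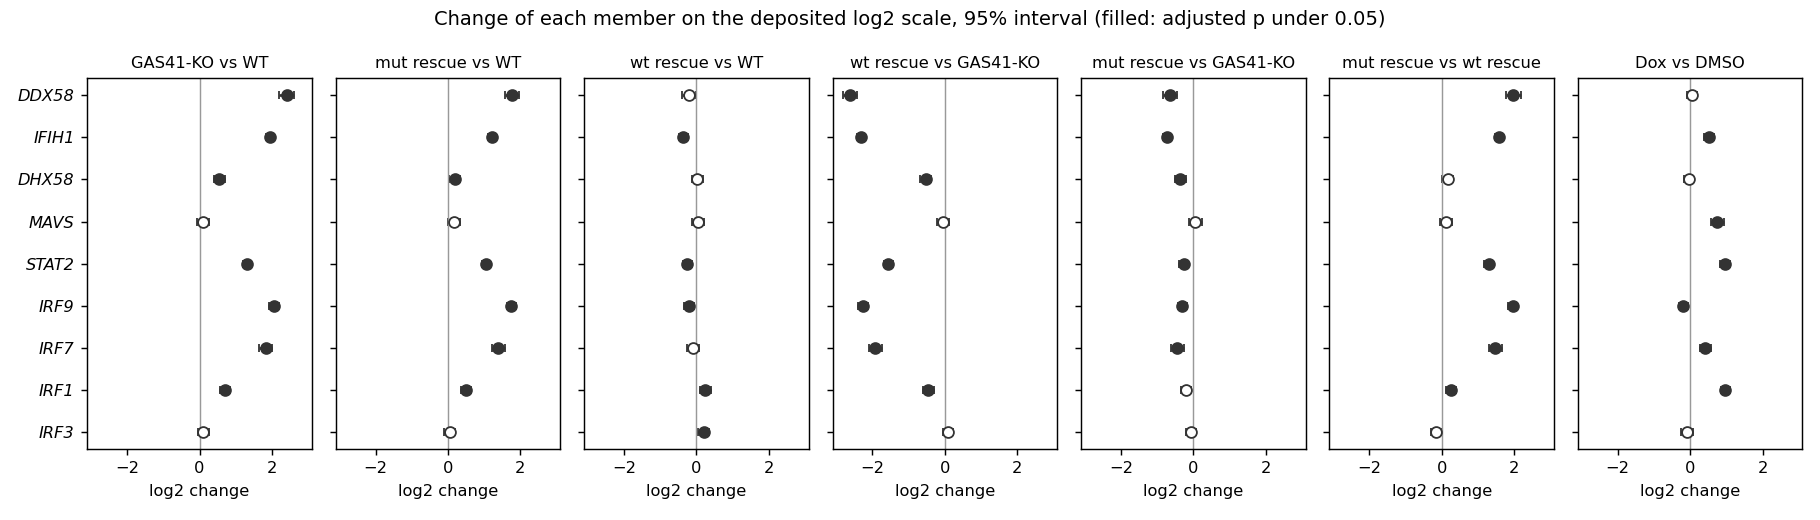
Change of each gene on the deposited log2 scale (horizontal axes) in the 7 comparisons, the group named first minus the group named second, with 95% intervals; filled points have an adjusted p under 0.05. MAVS and IRF3 stay within 0.11 of 0 in the 3 comparisons that involve GAS41-KO, and DDX58 reaches 2.41 in GAS41-KO against WT and 0.06 in Dox against DMSO.

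In the doxorubicin experiment, IFIH1, MAVS, STAT2, IRF7 and IRF1 rose in Dox cells relative to DMSO cells, IRF9 fell, and DDX58, DHX58 and IRF3 were not called. Of 14195 genes tested, 65.7% were called, 32.3% higher and 33.4% lower. The median of the 9 genes was 0.42 on the log2 scale, against -0.01 over all tested genes. Dox libraries detected 18840 to 18986 genes and DMSO libraries 17669 to 17893. The 9 colon epithelial markers summed to 146030 to 165192 normalized reads in Dox and 72256 to 87982 in DMSO libraries. KRT8 made most of this sum, averaging 91614 in Dox and 41323 in DMSO cells. Of the 8 tested, 7 were called higher, VIL1 among them, which passed the filter only through Dox libraries. EPCAM was called lower, averaging 4938 normalized reads in Dox and 7198 in DMSO cells. The 8 blood and immune markers with a row summed to 206 to 240.2 in Dox and 265 to 304 in DMSO libraries, mostly CD68, which averaged 171 and 256. The part of these differences in the results was not tested. YEATS4 itself averaged 185 ± 10.7 normalized reads in Dox cells and 668 ± 48.3 in DMSO cells (adjusted p = 3.58e-09).

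Of the sensors, IFIH1 had 306, 361 and 329 normalized reads in Dox libraries and 174, 194 and 182 in DMSO libraries. All Dox libraries lay above all DMSO libraries, by 1.81-fold in the means (log2 change 0.52 ± 0.06, limma adjusted p = 9.97e-06). DDX58 had 243, 249 and 238 normalized reads in Dox libraries and 242, 205 and 237 in DMSO libraries. These overlapped, and the log2 change was 0.06 with a 95% interval of -0.08 to 0.19 (limma adjusted p = 0.428). DHX58 had 9.88, 8.14 and 5.92 normalized reads in Dox libraries and 15.3, 4.96 and 10.7 in DMSO libraries, which overlapped (limma adjusted p = 0.549). Quantile normalization called DHX58 lower (adjusted p = 0.0283), so that the split of calls became 5 higher and 2 lower.

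MAVS had 5445, 4723 and 5781 normalized reads in Dox libraries and 3186, 3076 and 2968 in DMSO libraries. The groups were well apart, with a fold of 1.73 (log2 change 0.75 ± 0.08, limma adjusted p = 3.35e-06).

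The ISGF3 subunits STAT2 and IRF9 moved in opposite directions. STAT2 had 1145, 1095 and 1163 normalized reads in Dox libraries and 489, 492 and 499.6 in DMSO libraries, a fold of 2.30 (log2 change 0.96 ± 0.06, limma adjusted p = 2.18e-08). IRF9 had 168, 188 and 177 normalized reads in Dox libraries and 237, 215 and 216 in DMSO libraries. Neither gene's groups overlapped. IRF9 fell to 0.797 times its DMSO mean (log2 change -0.19 ± 0.06, limma adjusted p = 0.0146), and the call was lost without Dox replicate 1 (adjusted p = 0.0742).

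IRF1 had 975, 1001 and 985 normalized reads in Dox libraries and 417, 422 and 399.7 in DMSO libraries, which was the largest log2 change of the 9 genes with the drug, 0.97 ± 0.06 (2.39-fold, limma adjusted p = 1.64e-08). IRF7 had 212, 214 and 213 normalized reads in Dox libraries and 119, 146 and 106 in DMSO libraries. Both genes had Dox libraries above all DMSO libraries, and IRF7 stood 1.72-fold higher (limma adjusted p = 9.41e-05). IRF3 had 790.2, 887 and 869 normalized reads in Dox libraries and 1000.5, 904 and 825 in DMSO libraries, which overlapped (log2 change -0.08, 95% interval -0.24 to 0.08, limma adjusted p = 0.356). Its overlapping neighbour BCL2L12 averaged 424 normalized reads in Dox cells and 1339.8 in DMSO cells. In all, 6 of the 9 genes had groups that did not overlap, against 69.1% of all tested genes.

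**Figure D3:**
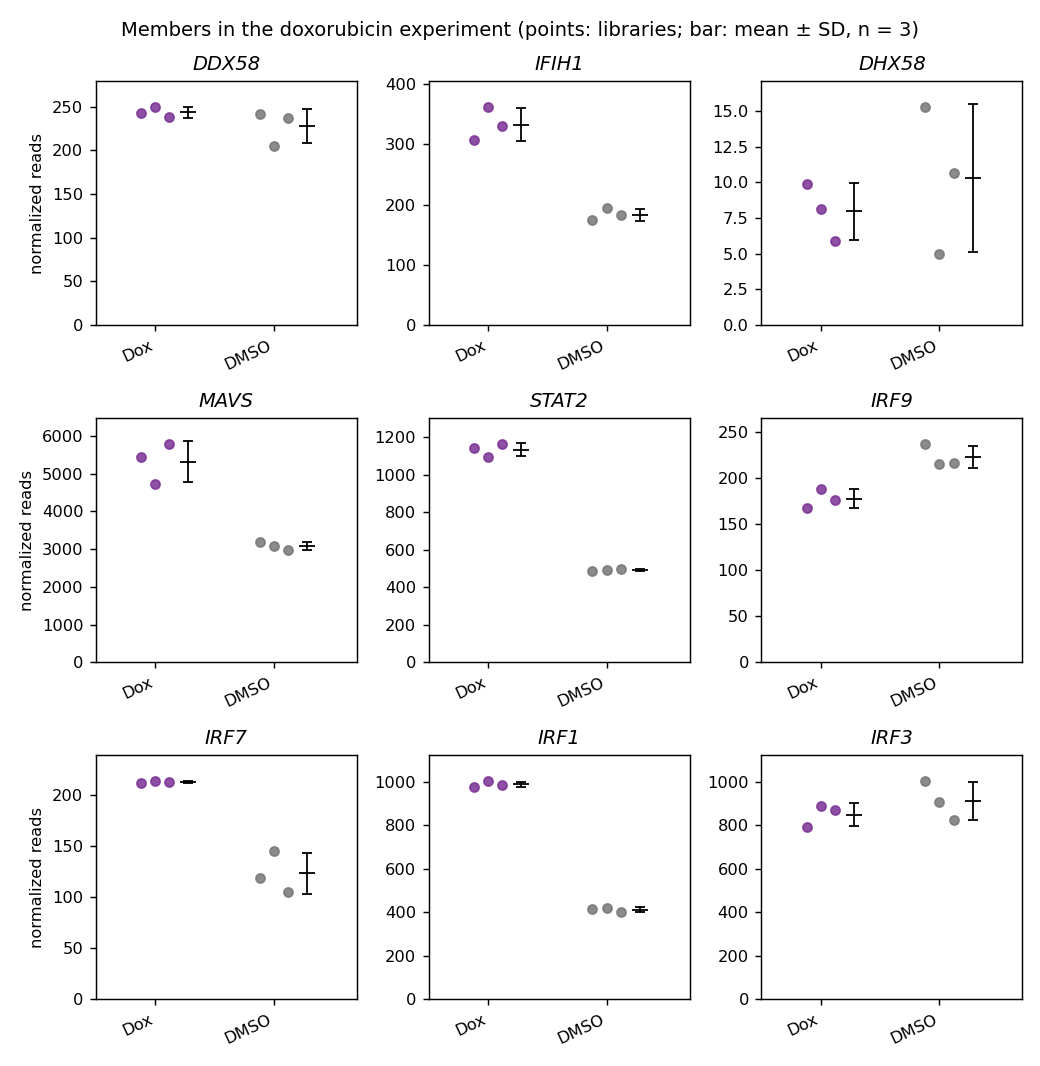
Normalized reads (vertical axes, each starting at 0) of the 9 genes in the 6 libraries of the doxorubicin experiment; points are libraries and bars give mean ± SD, n = 3 a group. Dox libraries lie above DMSO libraries for IFIH1, MAVS, STAT2, IRF7 and IRF1 and below them for IRF9.

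The other genes of the pathway were read from lists chosen by function, described here by counts and with no test of a list. The lists too were chosen with earlier results of these data known. Among the ligands, IFNE was the single gene tested. It averaged 42.5 ± 9.02 normalized reads in GAS41-KO cells and 4.43 ± 1.97 in WT cells (adjusted p = 6.9e-07), and 15.0 ± 1.24 in Dox cells and 3.59 ± 3.65 in DMSO cells (adjusted p = 0.00112). IFNE passed the filter only through libraries in which it was high, those of GAS41-KO and mut rescue and those of Dox. The filter thus favoured both calls. IFNL1, IFNL2 and IFNL3, which encode type III interferons, had 4, 3 and 9 reads over the 3 GAS41-KO libraries and 0 reads each in WT libraries, and did not pass the filter. Of the 13 ligand symbols looked up, 4 had a row in the GAS41 experiment and 5 in the doxorubicin experiment. IFNB1, IFNA1 and IFNA2 had none in either. A gene at 0 in all libraries would have no row, and no other reason for these missing rows was examined. The remaining IFNA genes were not looked up.

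The list counts for GAS41-KO against WT stand beside the 52.6% of all tested genes that were called, 26% higher and 26.6% lower, and a list with a share near these is no result about that list. Of the 6 tested receptor genes, 3 rose and 1 fell in GAS41-KO against WT cells. IFNAR2 rose (log2 change 0.31), while IFNAR1, its partner in the type I receptor, averaged 1134 ± 16.0 normalized reads in GAS41-KO cells and 1093 ± 27.8 in WT cells and was not called. All 5 tested JAK and STAT genes rose, among them JAK1 (log2 change 0.34), TYK2 (0.47) and STAT3 (0.81). Of the 12 relay genes between MAVS and the IRFs, 5 rose and 2 fell. TANK, a scaffold for the kinases of this relay, stood 2.75-fold above WT, whereas TBK1, the main kinase that phosphorylates IRF3, had a log2 change of 0.02 (adjusted p = 0.909).

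Of the 13 modifiers of RIG-I and MAVS, 4 rose and 2 fell. TRIM25, a ubiquitin ligase that promotes RIG-I signalling, stood 1.59-fold above WT. Of the 11 negative regulators of JAK-STAT signalling, 5 rose and 2 fell, and USP18, which restrains the type I interferon receptor, averaged 611 ± 26.8 normalized reads in GAS41-KO cells and 146 ± 2.68 in WT cells. All 11 tested RNA-binding effectors of the interferon response rose in GAS41-KO cells, with a median log2 change of 1.83, and fell in wt rescue against GAS41-KO cells. Of these, OAS1 and OAS2 passed the filter only through GAS41-KO and mut rescue libraries, in which they were high. IFIT1 averaged 2559 ± 156 normalized reads in GAS41-KO cells and 82.6 ± 8.23 in WT cells.

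By contrast, the other IRF genes were divided, with 2 of 6 higher and 3 lower, and IRF2 averaged 284 ± 4.11 normalized reads in GAS41-KO cells and 150.3 ± 14.3 in WT cells. Of the 4 DNA sensing genes tested, 1 rose and 2 fell. SAMHD1, which degrades deoxynucleotides, rose 2.84-fold, TMEM173, which encodes the adaptor STING, fell to 0.615 times WT, and DDX41, a helicase, fell to 0.784 times WT. Of the 7 tested genes of endosomal Toll-like receptor signalling, 2 rose, TLR3 and the adaptor MYD88.

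In Dox against DMSO cells, where 65.7% of all tested genes were called, 32.3% higher and 33.4% lower, all 7 tested genes of that Toll-like receptor list rose. These 7 held TLR9 in place of TLR7, which was tested in the GAS41 experiment. TLR9 averaged 23.6 normalized reads in Dox and 4.64 in DMSO cells. It passed the filter only through Dox libraries, so the filter favoured its rise. TLR3, the endosomal sensor of double-stranded RNA, averaged 568 ± 45.7 normalized reads in Dox cells and 67.2 ± 3.18 in DMSO cells, an 8.46-fold difference (adjusted p = 1.3e-10). TMEM173 stood 3.35-fold higher with the drug. Among the other IRF genes, 5 of 6 rose, with IRF5 at 2.02-fold, and none fell. The modifiers had 7 of 13 higher and 3 lower, with NLRX1, a mitochondrial protein that binds MAVS, at 3.96-fold. Calls in other lists ran both ways, with 2 higher and 3 lower of 6 receptor genes, 3 higher and 3 lower of 12 relay genes, and 4 higher and 3 lower of 11 negative regulators. The JAK and STAT genes were mixed, with 3 higher and 2 lower of 5, STAT3 being 2.69-fold higher and JAK1 and JAK2 being called lower. The RNA-binding effectors showed 3 of 9 higher and 2 lower, and IFIT1 averaged 101 ± 8.84 normalized reads in Dox cells and 102 ± 26.0 in DMSO cells.

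**Figure D4:**
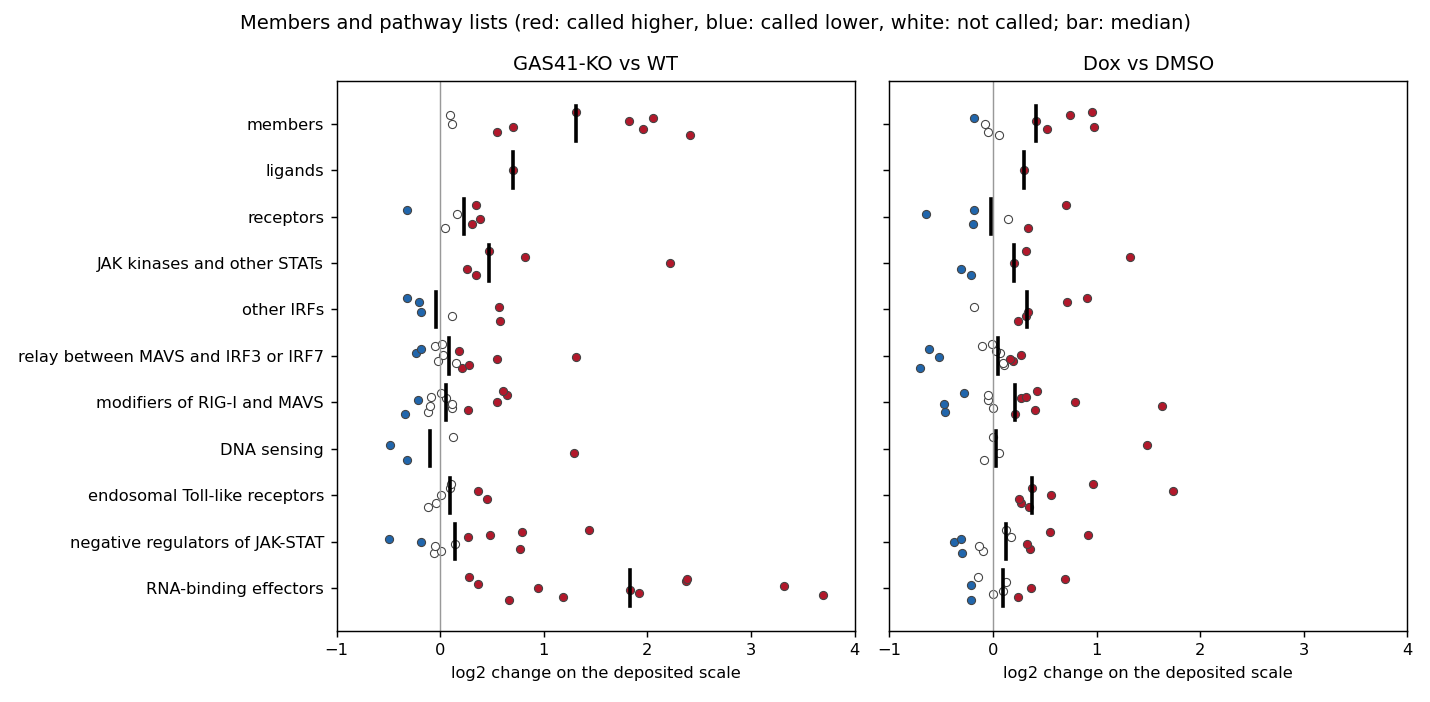
Changes on the deposited log2 scale (horizontal axes) of the 9 genes (row "members") and of the tested genes of 10 pathway lists, GAS41-KO against WT on the left and Dox against DMSO on the right; red points were called higher, blue lower, white not called, and bars mark medians. The RNA-binding effectors have a median of 1.83 on the left and 0.10 on the right, and the endosomal Toll-like receptor list has 0.09 on the left and 0.37 on the right.

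For the 5 genes whose group means differed by at least 1 on the log2 scale, the genes with the most similar values across the 12 libraries were sought among 14496 tested genes. Likeness was measured as the mean absolute difference between log2 values set relative to the WT mean. Nearest to DDX58 were PARP9 (0.09), ETV1 (0.10) and OASL (0.14). IFIH1 lay nearest to IFIT2 (0.07), IQGAP2 (0.08) and DTX3L (0.10), and IRF7 to SP110 (0.10), IFIT3 (0.10) and IFIT2 (0.10). The nearest genes of IRF9 were KIAA1462 (0.08), HELZ2 (0.09) and MRC2 (0.12). STAT2 lay nearest to ABCA3 (0.05), PNRC1 (0.07) and SMIM14 (0.07). Of these neighbours, OASL, IFIT2 and IFIT3 are in the pathway lists. These distances describe the 12 libraries, which share groups, and carry no test.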

How the data were processed

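RNA of 18 HCT116 libraries was analysed, and 26 ChIP or input samples were not analysed here. Per the labels' protocols, poly-A RNA of the GAS41 experiment was sequenced on a BGISEQ-500, whereas RNA of the doxorubicin experiment was read by Illumina HiSeq machines. Per the submitters' processing notes, the builds were hg19 and mm9 and the tools were DESeq2, HTSeq, TopHat2 2.1.0, Bowtie 1.0.1, Trimmomatic 0.36 and CASAVA 1.4, with no role for any. The annotation is not given in the sources used here.

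The deposited tables hold log2 values that the authors made on a variance-stabilized scale, as read from the values themselves: inverting the transformation gave whole reads (within 0.01) for 100% of values, and the size factors equalled median-ratio factors. The 2 tables were normalized separately and never compared.

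Each table was fitted on its deposited log2 values with limma 3.58.1 (R 4.3.3; trended empirical Bayes, group means, two-sided), over genes with at least 10 reads in at least 3 libraries, with Benjamini-Hochberg adjustment over all tested genes and 7 comparisons taken separately. Adjusted p-values given without a tool are also from limma. The main fit used no count model, because the deposited unit is log2. The fit was also run on simulated reads with few changed genes and the same spread setting for every gene. These settings differ from the data, so no error rate of the calls is drawn from that run. Alternatives were other filters, scalings and scales (TMM, quantile normalization, voom, log2 of normalized reads + 1), a replicate block, fits on 2 groups, and leaving out libraries. The results named for TMM factors came from voom on the recovered reads, so scale and weights changed along with the normalization. The 9 genes and the lists were chosen with earlier results of these data known. Named genes are the 9, YEATS4, fixed pathway genes, up to 3 further called genes with the smallest p a list for GAS41-KO against WT and up to 2 for Dox against DMSO, and the 3 nearest genes of each of the 5 most changed. BCL2L12 and the marker genes were added beside them, and some genes that this rule names are not reported here.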

Additional observations from a re-analysis of the deposited data

How the results depend on the processing

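Over the 63 changes of the 9 genes (7 comparisons), 845 of 890 alternative values kept their direction and side of the threshold, 17 lost a call, 17 gained one, and 11 reversed. Every call that changed is given beside its result above except those of the replicate block. The reversals were of changes not called in either setting. Under quantile normalization they were -0.15 for MAVS and 0.015 for IRF7 (wt rescue against WT) and -0.023 for DDX58 (Dox against DMSO). For MAVS in wt rescue against WT they were also -0.024 with TMM factors and -0.047 with wt rescue replicate 1 only. Leaving out a library gave -0.019 to 0.098 for IRF3 in mut rescue against WT, -0.026 to 0.046 for DHX58 in wt rescue against WT, and -0.032 to 0.111 for MAVS in mut rescue against GAS41-KO. In wt rescue against WT, 5 genes were called, 3 with wt rescue replicate 1 only, and 4 to 6 without 1 library; pathway-list calls numbered 33, 11 with that replicate only, and 20 to 36 without 1 library. The cause was not tested.

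Replicate numbers give no stated pairing of the libraries. Correlations of same-numbered libraries ranged from -0.393 to 0.478. Of the 6 libraries of a comparison, 3 or 4 correlated best with their own number in the GAS41 experiment, and 2 in the doxorubicin experiment. These values do not settle whether same-numbered libraries shared a batch. With a replicate block, 7 genes were called in GAS41-KO against WT, as without it; DHX58 was lost in mut rescue against WT (adjusted p = 0.0538), and calls were gained for DDX58 in wt rescue against WT (0.0483), IRF1 in mut rescue against GAS41-KO (0.0397) and IRF3 in mut rescue against wt rescue (0.0479). DHX58 was not tested under the filter of 50 reads, nor, in Dox against DMSO, without DMSO replicate 1, DMSO replicate 3 or Dox replicate 1, since 3 libraries there reach 10 reads. Depth limits DHX58 most, with 4.77 to 44.9 normalized reads.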
